A study of Drosophila melanogaster with 2 samples.

Results

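Chromosome 4 of Drosophila melanogaster held 575 of the 29999 regions listed for the transcription factor Jra in whole larvae, and 16 of the 3827 regions that passed the authors' cut on reproducibility between replicates. All regions on chromosome 4 in the pooled list of genome build dm6 were taken, with no selection by signal, and a region was marked as reproducible when the authors' list cut by irreproducible discovery rate (the IDR list) held the same coordinates. The data are ChIP-seq, in which DNA bound by a protein is precipitated and sequenced, from a transgenic line that stably expresses Jra fused at its C terminus to GFP. The precipitation used an antibody against GFP, per the sample descriptions, while the antibody field of the labels reads Jra. Whole larvae in the wandering stage of the third instar were used, both sexes together, and tissues cannot be told apart. The 2 biological replicates, which the labels number 1 and 3, form a single group without another condition. The sequence that drives the transgene is not given in the sources used here. The control libraries were not analysed here, and the depth of sequencing is unknown, since no read counts come with the lists. The other arms are 2L, 2R, 3L, 3R and X.

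Jra is the Jun protein of the fly. With its Fos partner it forms the transcription factor AP-1, a target of the JNK kinase cascade. Chromosome 4, also called the F element, is the smallest chromosome of the fly. Most of it carries marks of heterochromatin and many copies of mobile elements lie between and within its genes, yet its genes are transcribed, and the protein POF binds their transcribed parts. The lists include background regions, down to the weakest that the authors passed to the reproducibility analysis, so a place on the pooled list alone is not evidence of binding. The values below set chromosome 4 beside the other 5 arms. They are counts, shares and medians with no test of a difference. Wilson 95% intervals cover counting error over regions or genes only, not the spread between animals.

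Some of the sequences behind these regions are shown first, on the plus strand of dm6, 5′ to 3′, read from the Release 6 reference. The region of highest signal lay at the promoter of gw (bases within 50 bp of its summit, chr4:660094-660194). The strongest peak outside a promoter and any gene lay upstream of zfh2 (chr4:497841-497941). The peak at the promoter of ey (chr4:696894-696994) held a DRE, the site of the factor DREF, TATCGATA, shown in capitals.
gw promoter: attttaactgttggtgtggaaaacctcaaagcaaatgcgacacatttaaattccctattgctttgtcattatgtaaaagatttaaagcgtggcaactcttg
zfh2 upstream: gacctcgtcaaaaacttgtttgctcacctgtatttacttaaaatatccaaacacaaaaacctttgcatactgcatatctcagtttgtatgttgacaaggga
ey promoter: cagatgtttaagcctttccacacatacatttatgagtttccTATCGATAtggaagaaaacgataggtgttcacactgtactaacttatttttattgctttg
The first 2 of these windows held neither an AP-1 site nor a DRE.

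AP-1 sites (TGACTCA, or TGAGTCA on the other strand) lay within 50 bp of the summit in 6 of the 575 regions, and each is shown with 10 bases on either side and the site in capitals. They belong to the promoter peak of zfh2 (chr4:501826-501852), promoter regions of pan (chr4:91042-91068) and Sox102F (chr4:834272-834298), the 3′ UTR class at Zip102B (chr4:311195-311221), a coding exon of apolpp (chr4:1074158-1074184) and a copy of the telomeric element HeT-A (chr4:1306518-1306544).
zfh2: aaacgttgaaTGAGTCAgatgcgggtc
pan: taattaaattTGAGTCAtcaaggtgaa
Sox102F: ttgcaggcttTGAGTCAaaagtcattc
Zip102B: aaatctttccTGACTCAatgtagattc
apolpp: cgcattctttTGACTCAttggctgttc
HeT-A copy: tgcattagatTGAGTCAttgttgggag
Of these 6, only the zfh2 region was on the IDR list.

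Regions were dense on chromosome 4 and reproducible peaks were sparse. Chromosome 4 makes up 0.996% of the gap-free sequence of the 6 arms and held 1.92% of the 29970 regions on them. That is 432 regions per Mb on chromosome 4, against 222 per Mb on the other 5 arms together and 200 to 242 per Mb on each. The list of replicate 1 held 464 regions on chromosome 4, or 349 per Mb, against 223 per Mb on the other arms. The list of replicate 3 held 618, or 464 per Mb, against 222 per Mb on the other arms. The excess therefore stood in both replicates and was smaller in replicate 1. All 3 lists are of near equal length, with 29970 regions on the 6 arms in the pooled list, 30000 in replicate 1 and 29971 in replicate 3. These densities describe the lists at that length and depend on where each list ends among weak regions.

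For the IDR list the order was turned round. The 16 IDR peaks on chromosome 4 amount to 12.0 per Mb, against 28.6 per Mb on the other arms, where each arm held 27.4 to 29.9 per Mb. Of the chromosome 4 regions, 2.78% (Wilson 95% interval 1.72 to 4.47) were on the IDR list, against 12.9% on the other arms (12.1 to 14.5% on each) and 12.7% over all 6 arms. The 3827 regions of highest signal in each replicate's own list included 15 on chromosome 4 in either replicate, which is 11.3 per Mb, against 28.8 per Mb on the other arms in replicate 1 and 28.6 per Mb in replicate 3.

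**Figure D1:**
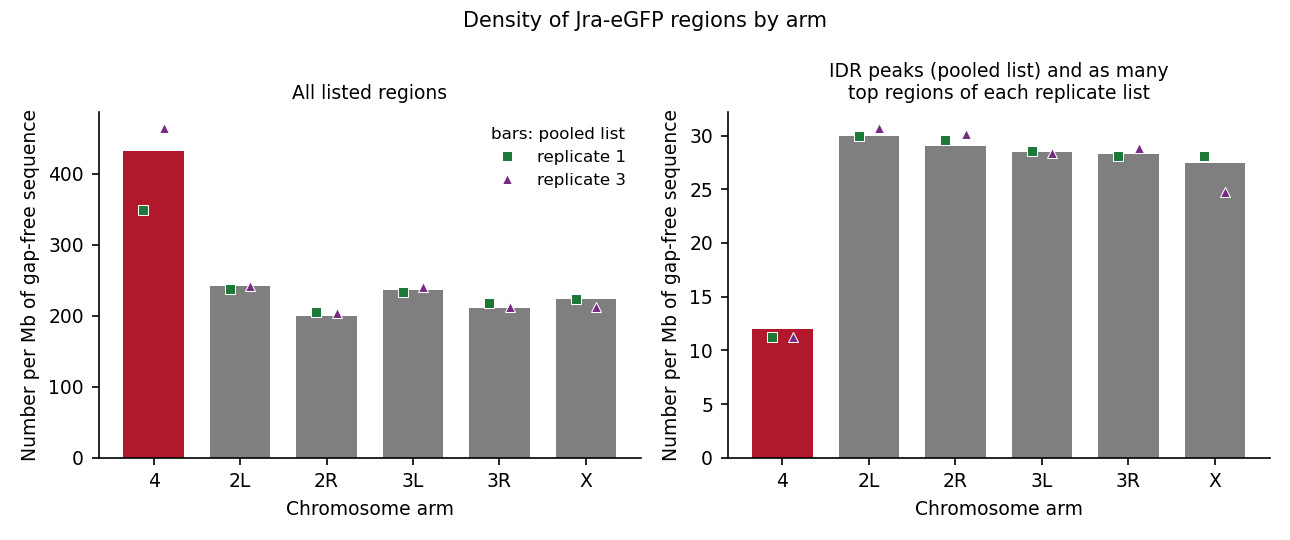
Number per Mb of gap-free sequence (vertical axes) on each chromosome arm (horizontal axes), for all listed regions (left) and for IDR peaks (right). Bars are the pooled list, squares replicate 1 and triangles replicate 3 (right panel: the 3827 regions of highest signal in that replicate's list); chromosome 4, in red, is the highest arm on the left (432 per Mb) and the lowest on the right (12.0 per Mb).

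The median signal over all regions, the authors' value for each, was lower on chromosome 4 within every list. In the pooled list the median was 22.9 on chromosome 4 (quartiles 18.9 and 29.8), against 27.4 on the other arms (20.2 and 45.6), whose own medians ran from 26.9 to 28.8. The medians were 14.3 on chromosome 4 and 16.5 on the other arms in replicate 1, and 12.5 on chromosome 4 and 15.2 on the other arms in replicate 3. Each list has a scale of its own, so values are compared within a list only. The upper quartile differed more than the lower one. The highest signal on chromosome 4 was 196, against 1184 over the other arms, where the lowest of the 5 maxima was 742. These maxima come from 575 regions on chromosome 4 and 5054 to 6782 on each other arm. A maximum tends to rise with the number of regions. Among IDR peaks the median was 86.3 on chromosome 4 and 104 on the other arms (100.4 to 107 on each). Among the 3827 strongest regions of replicate 3 it was 42.5 on chromosome 4 and 50.1 on the other arms. In replicate 1 it was 59.1 on chromosome 4 and 60.9 on the other arms, within their range of 58.5 to 63.6, so a lower signal among the strongest regions was not seen there.

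Along the ranking by signal, the share of chromosome 4 was lowest among the strongest regions. Chromosome 4 supplied 26 of the 5000 strongest regions of the pooled list (0.520%, Wilson 0.355 to 0.761) and 52 of the next 5000 (1.04%). It supplied 107, 125 and 136 of the 3 following sets of 5000 and 129 of the last 4970, which are 2.14%, 2.50%, 2.72% and 2.60%. The first share lies below the 0.996% of sequence that the chromosome contributes, the second is near it, and the last 4 lie above it. Both replicates gave the same shape, with 0.480% of the first 5000 and 2% to 2.10% of the last 3 sets in replicate 1, and 0.520% of the first 5000 and 2.80 to 2.96% of the last 3 sets in replicate 3. Of the chromosome 4 regions, 9.57% were in the upper 25% and 34.8% in the lower 25% of the pooled ranking.

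**Figure D2:**
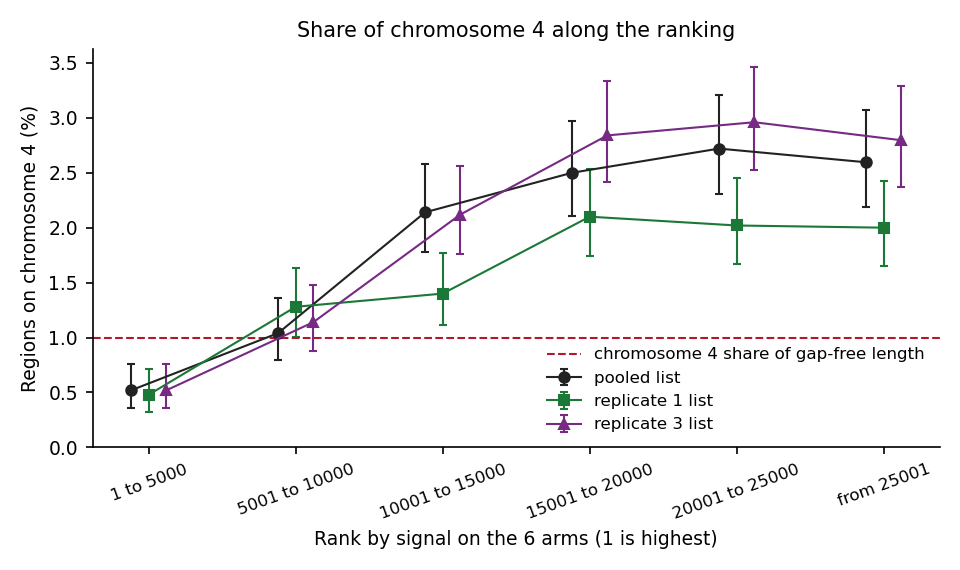
Share of regions that lie on chromosome 4 (vertical axis, percent) in successive sets of 5000 regions ranked by signal on the 6 arms (horizontal axis), for the pooled list and each replicate's list; bars are Wilson 95% intervals. The dashed line is the share of gap-free sequence on chromosome 4 (0.996%): all 3 lists start below it, at 0.480 to 0.520%, and end above it, at 2% to 2.80%.

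Long stretches without a summit took up less of chromosome 4 than of the other arms. Neighbouring summits were 1352 bp apart at the median on chromosome 4 and 1355 bp on the other arms, but the mean distance was 2224 bp on chromosome 4 and 4323 bp on the other arms. Stretches of over 10 kb without a summit made up 16.7% of the distance between the first and the last summit on chromosome 4, against 61.3% on the other arms. A fixed 10 kb is a larger multiple of the mean distance on chromosome 4, so a higher density by itself lowers this share. The part of density in it was not tested. In the 12 windows of 100 kb with at least 0.09 Mb of sequence, chromosome 4 held 160 to 610 regions per Mb (median 480). An IDR peak was found in 8 of the 12, a count not made on the other arms. Of the 1319 such windows on the other arms, whose median was 200 regions per Mb, 110 (8.34%) reached the chromosome 4 median. The windows with less sequence, at the end of chromosome 4, were sparser than that median, with 217 and 41.6 regions per Mb and no IDR peak. Of the chromosome 4 regions, 573 were 440 bp wide and 179 (31.1%) overlapped another one, against 36.8% on the other arms, so members are not all separate sites.

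The 16 reproducible peaks lay mostly at promoters, that is with a summit within 1000 bp of the transcription start site (TSS) of a protein-coding gene. This held for 12 of the 16 (75%, Wilson 50.5 to 89.8), against 64.0% of IDR peaks on the other arms. The strongest, at gw (chr4:660052-660260), had its summit 161 bp upstream of a TSS. Its signal was 196 in the pooled list, 112 in replicate 1 and 82.0 in replicate 3, and it ranked 502 among the regions on the 6 arms. gw encodes GW182, the scaffold protein of microRNA silencing. It was the highest of the 16 peaks in all 3 lists.

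For 6 of the 16 peaks the nearest gene was on the list of transcription factors and chromatin, which holds 14 of the 80 protein-coding genes of the chromosome. The 6 peaks are nearest to only 4 genes, and the list was written with earlier results known. zfh2, a zinc finger and homeodomain factor of wing and leg development, had 2 peaks of similar signal. The promoter peak (chr4:501576-502015), 14 bp from the TSS, had a signal of 136 in the pooled list, 72.2 in replicate 1 and 67.9 in replicate 3. The peak 3919 bp upstream (chr4:497814-497973) had 132 in the pooled list, 75.4 in replicate 1 and 56.4 in replicate 3. Of the pair, the upstream peak was the higher in replicate 1 and the promoter peak in replicate 3, so their order is not fixed.

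lgs encodes the Legless protein, the BCL9 adaptor of Wingless signalling, and was the nearest gene to 2 peaks. Its promoter peak (chr4:443729-444168) had a signal of 84.4 in the pooled list, 47.9 in replicate 1 and 34.5 in replicate 3. The other lay 19090 bp away between genes (chr4:424601-425040), 1246 bp from the nearest TSS of any gene, that of the non-coding lncRNA:CR43437. It had a signal of 109 in the pooled list, 72.6 in replicate 1 and 38.2 in replicate 3. Assignment to lgs by distance is only a label for that peak.

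ci, the transcription factor of Hedgehog signalling, had a promoter peak (chr4:56126-56565) of 76.5 in the pooled list, 48.3 in replicate 1 and 36.4 in replicate 3. ey, the fly Pax6 and a master gene of eye development, had a peak 745 bp upstream of a TSS (chr4:696724-697163) with 74.2 in the pooled list, 31.8 in replicate 1 and 42.5 in replicate 3. That summit also lay within 1000 bp of the TSS of the neighbouring gene myo, which encodes the TGF-beta family ligand Myoglianin. The ey peak and that of CG11076 were the only 2 of the 16 with a higher value in replicate 3 than in replicate 1, on lists that differ in scale.

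Housekeeping genes held 3 further promoter peaks. At ATPsynbeta, a subunit of the mitochondrial ATP synthase, the signal was 103 in the pooled list, 81.6 in replicate 1 and 21.2 in replicate 3 (chr4:1031641-1032080). At RpS3A, a protein of the small ribosomal subunit, it was 75.4 in the pooled list, 59.1 in replicate 1 and 13.5 in replicate 3 (chr4:67039-67478). These 2 peaks differed most between the replicates: they ranked 1072 and 2009 in the list of replicate 1, and 9135 and 17463 in that of replicate 3. Arf4, a small GTPase of membrane traffic, shared its peak with the promoter of Cals and had 82.2 in the pooled list, 55.9 in replicate 1 and 26.2 in replicate 3.

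PlexB, a receptor for semaphorins in axon guidance, had a promoter peak of 94.3 in the pooled list, 67.8 in replicate 1 and 34.3 in replicate 3. The promoter peak of CG11076, close to that of ATPsynbeta, had 88.2 in the pooled list, 37.3 in replicate 1 and 49.4 in replicate 3. The promoter peaks of anne and CG11360 had 76.8 and 74.0 in the pooled list. In replicate 1 they had 44.0 and 43.8, and in replicate 3 they had 32.0 and 26.8. The remaining pair lay away from promoters. One was 4476 bp upstream of fuss, a gene of the Ski and Sno family (72.1 in the pooled list, 34.9 in replicate 1 and 34.6 in replicate 3). The other had its summit in the 3′ UTR class, inside both Cals, which encodes calsyntenin, and sv, the fly Pax2 (133 in the pooled list, 71.5 in replicate 1 and 60.1 in replicate 3).

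**Figure D3:**
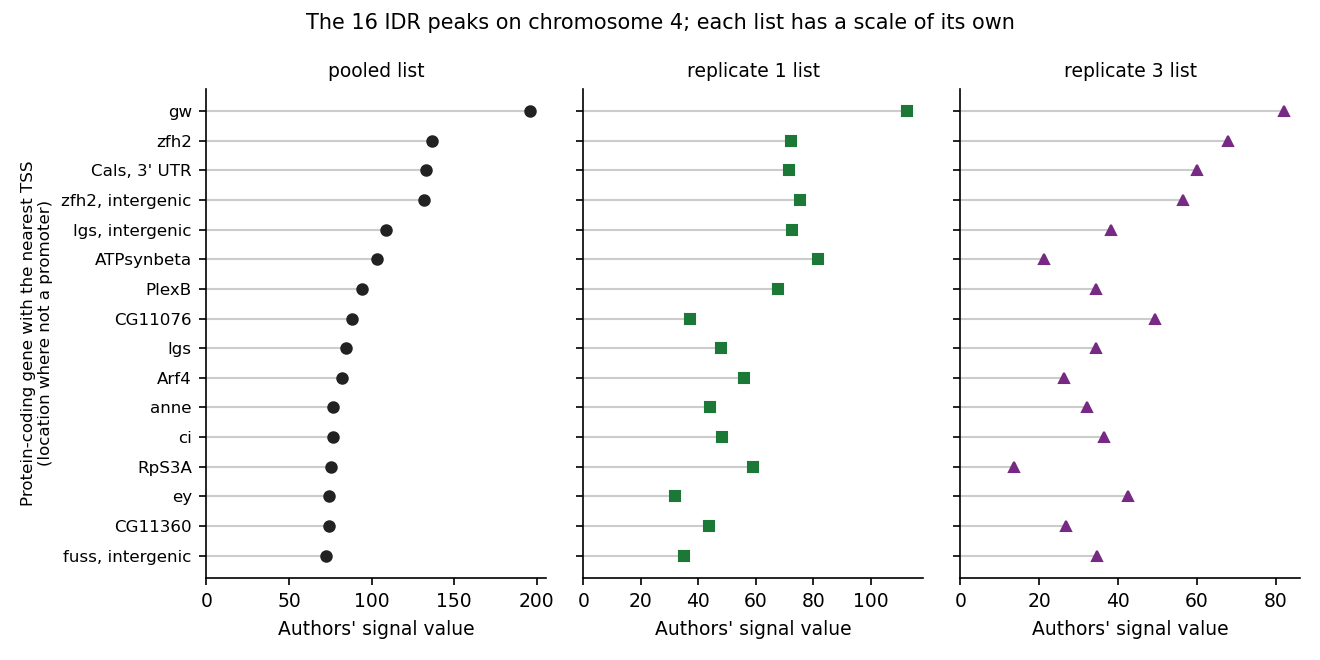
Authors' signal value (horizontal axes, a scale of its own in each panel) of the 16 IDR peaks on chromosome 4 in the pooled list, in replicate 1 and in replicate 3, by the protein-coding gene with the nearest TSS (vertical axis). gw is highest in each panel (196, 112 and 82.0), while ATPsynbeta and RpS3A stand high in replicate 1 and low in replicate 3.

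All 16 IDR peaks overlapped a region of both replicate lists, but 6 of them (37.5%) ranked among the 3827 strongest in both, against 69.2% of IDR peaks on the other arms. In replicate 1 alone 7 did so, in replicate 3 alone 2, and the fuss peak in neither. The signal value was higher in replicate 1 than in replicate 3 for 14 of the 16. On the other arms it was higher for 2680 of the 3749 IDR peaks that overlapped both lists. The lists differ in scale, which bears on both counts alike. With 16 peaks on chromosome 4, a difference between it and the other arms was not tested. Over all chromosome 4 regions, 312 of 575 overlapped a region of both replicate lists (54.3%, Wilson 50.2 to 58.3), against 64.7% on the other arms. Of the others on chromosome 4, 95 overlapped a region of replicate 1 only, 138 of replicate 3 only and 30 of neither.

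The IDR list ended on chromosome 4 between fuss, at 72.1, and Hcf, at 68.8. The 10 strongest regions outside the list had signals of 60.02 to 68.8. They lay at the promoters of Hcf, a chromatin-bound host cell factor (68.8), Rad23 of nucleotide excision repair (67.1), Ephrin (65.1), CG31999 (64.6), Gyf (63.4), the activin ligand gene Actbeta (62.9), pan, the TCF factor of Wingless signalling (60.9), the kinase gene Asator (60.3) and Mpv17 (60.02). The 1 that did not lie at a promoter was 2143 bp upstream of ci (61.7). In the replicates, these 10 had 22.7 to 49.2 in replicate 1 and 15.5 to 41.2 in replicate 3, which overlaps the range of the IDR peaks in both.

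Promoters took a smaller share of all regions on chromosome 4, and so did promoter sequence. Of the 575 summits, 159 (27.7%, Wilson 24.2 to 31.4) lay at a promoter, against 37.4% on the other arms (34.7 to 42.4% on each). Bases within 1000 bp of a TSS make up 15.2% of chromosome 4 and 20.3% of the other arms. The share of summits was therefore 1.82 times that of bases on chromosome 4 and 1.84 times on the other arms. For IDR peaks the ratio was 4.93 on chromosome 4 and 3.15 on the other arms, with the wide interval given above. Promoter regions had a median signal of 28.2 on chromosome 4 and 36.6 on the other arms. Of them, 7.55% were IDR peaks on chromosome 4 and 22.0% on the other arms. Away from promoters, 4 of 416 regions were IDR peaks on chromosome 4 (0.962%, Wilson 0.375 to 2.45), against 7.41% on the other arms.

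Coding exons were the class of sequence in which chromosome 4 stood farthest from the other arms. Outside promoters, 67 of the 575 summits lay in a coding exon (11.7%, Wilson 9.28 to 14.5), against 268 of 29395 on the other arms (0.912%; 0.609 to 1.05% on each). Per Mb of such sequence, that is 289 summits on chromosome 4 and 19.9 on the other arms, where each arm held 12.6 to 23.2. In replicate 1 the shares were 13.4% on chromosome 4 and 1.48% on the other arms, and in replicate 3 they were 9.71% on chromosome 4 and 0.910% on the other arms. Coding exon bases outside promoters are 17.2% of chromosome 4 and 10.2% of the other arms. In the pooled list the share of summits was 0.679 times that of bases on chromosome 4 and 0.0896 times on the other arms. Summits were thus under-represented in coding exons in both, and less so on chromosome 4. When only summits for which every base within 50 bp was coding were counted, 37 remained on chromosome 4 (6.43%) and 153 on the other arms (0.520%), or 204 and 14.3 per Mb of such sequence. On chromosome 4 none of the 67 was on the IDR list, against 5 of 268 on the other arms, so few were on it in either. None of the 67 lay in a mobile element, against 1 of 268 on the other arms.

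These coding exon regions were weak and spread over many genes. Their median signal was 19.9 on chromosome 4, against 21.3 in the same class on the other arms, and the highest on chromosome 4 was 36.9, in CG31999. They were found in both replicates in 34.3% of cases on chromosome 4 and 42.2% on the other arms. CG33978 held 8 of the 67, apolpp, which encodes the apolipophorin precursor of lipid transport in the haemolymph, held 5, and Ank, the ankyrin gene, and unc-13, a gene of synaptic vesicle release, held 4 each. The 2 strongest of those with coding bases only within 50 bp lay in Taf3 (chr4:464507-464607, signal 33.4) and Dyrk3 (chr4:1229403-1229503, signal 32.7). They are shown with runs of 6 or more A or T in capitals, as a description of their base composition only.
Taf3 coding exon: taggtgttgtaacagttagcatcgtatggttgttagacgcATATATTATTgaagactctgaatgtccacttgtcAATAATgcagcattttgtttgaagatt
Dyrk3 coding exon: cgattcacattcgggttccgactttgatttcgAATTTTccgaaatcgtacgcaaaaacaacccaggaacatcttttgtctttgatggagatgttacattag

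Chromosome 4 is rich in A and T, and so are its regions. A+T made up 67.0% of the bases within 50 bp of summits on chromosome 4 and 62.8% on the other arms, and 64.8% of all bases on chromosome 4 and 57.8% on the other arms. In coding exons away from promoters it was 58.4% on chromosome 4 and 46.4% on the other arms. Summits were therefore also counted per Mb of sequence of like A+T within 50 bp. With all locations together, the density of regions on chromosome 4 was 1.27 to 1.72 times that of the other arms in all 5 classes of A+T. At promoters alone it was 1.42 to 1.95 times below 70% A+T and 0.960 times at 70% and over. The density of IDR peaks, again with all locations together, was lower on chromosome 4 in all 5 classes. At 65 to 70% A+T, where chromosome 4 had 5 IDR peaks, it was 17.8 per Mb there and 37.6 per Mb on the other arms. At promoters alone it was higher on chromosome 4 under 55% A+T (106.7 against 58.1 per Mb, from 2 peaks). The same held at 55 to 60% (124.7 against 95.1 per Mb, from 3 peaks), and it was lower in every class from 60% up. Beyond these counts, the part of base composition in the results was not tested.

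In coding exons at 60 to 65% A+T, 25 summits on chromosome 4 gave 408 per Mb, against 33 summits and 60.3 per Mb on the other arms. The other 4 classes held 6 to 14 coding exon summits each on chromosome 4, with 2.19 to 8.91 times the density of the other arms. The 3′ UTR class also held a larger share on chromosome 4, with 65 summits (11.3%), against 5.50% on the other arms, where such bases are 8.01% of chromosome 4 and 4.37% of the other arms. Introns held 200 summits on chromosome 4 (34.8%), against 38.6% on the other arms, and intergenic sequence held 83 on chromosome 4 (14.4%), against 17.2% on the other arms. Per Mb, each of these 3 classes was denser on chromosome 4. The 5′ UTR class was not, with 1 summit and 159.9 per Mb on chromosome 4 against 206 per Mb on the other arms.

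**Figure D4:**
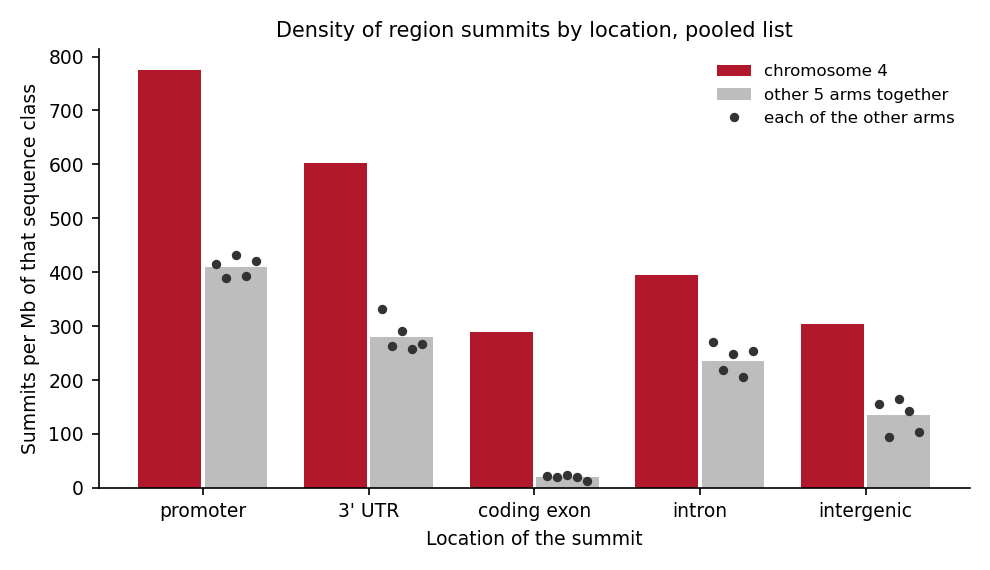
Summits of the pooled list per Mb of each class of sequence (vertical axis), by location (horizontal axis), on chromosome 4 (red), on the other 5 arms together (grey) and on each of those arms (points). Chromosome 4 is higher in the 5 classes drawn, and the 5′ UTR class, with 1 summit on chromosome 4, is left out; in coding exons it has 289 per Mb, against 19.9 on the other arms.

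Mobile elements occupy 24.8% of chromosome 4 and 5.22% of the other arms. They held 58 of the 575 summits (10.1%, Wilson 7.88 to 12.8) on chromosome 4, against 0.677% on the other arms, and none of the 16 IDR peaks (0%, Wilson up to 19.4), against 3 of 3787 IDR peaks on the other arms. The INE-1 element, a short repeat scattered through chromosome 4, held 32 of the 58, in 344 annotated copies, and the 1360 element 8. Signals there were low, with a median of 20.4, and the highest, 56.3, was the HeT-A region with the AP-1 site shown above. With elements and the regions in them set aside, the density was 518 regions per Mb on chromosome 4 and 233 on the other arms, and that of IDR peaks 16.05 on chromosome 4 and 30.2 on the other arms. The 31 bases at the summit occurred more than once on the arms for 11 of the 575 regions (1.91%), against 0.265% on the other arms, and for none of the 16 IDR peaks. Of windows tiled along the arms, 15.3% on chromosome 4 and 12.4% on the other arms had such a repeated centre. How reads from repeated sequence were handled is not given in the sources used here, and their part in these counts was not tested.

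The AP-1 site was found within 50 bp of 1.04% of chromosome 4 summits (Wilson 0.479 to 2.26), against 2.12% on the other arms, and in 0.644% of all windows of the same width tiled along chromosome 4 and 0.784% of those on the other arms. The interval for chromosome 4 covers both its own tiled windows and the share on the other arms. In the list of replicate 1 alone the share was 0.647% on chromosome 4, close to that of its tiled windows, against 2.08% on the other arms, and in replicate 3 it was 0.809% on chromosome 4 and 1.97% on the other arms. Among IDR peaks it was 1 of 16 on chromosome 4, at zfh2, against 4.07% on the other arms. Among promoter regions of the pooled list it was 3 of 159 on chromosome 4 (1.89%), against 1.94% on the other arms. The lower share over all regions was thus not seen at promoters. The DRE was found at 8 chromosome 4 regions (1.39%, Wilson 0.707 to 2.72), against 1.10% on the other arms, with ey as the IDR peak and the promoters of Taf3, MED26 and fuss among the rest. Of the 8, 3 lay in copies of INE-1 (at fuss, in Cadps and in an intron of fuss nearest to 4E-T), and the 31 bases at the summit of the last occurred 15 times on the arms. Of tiled windows, 0.884% on chromosome 4 and 0.268% on the other arms held a DRE. GAGAGAG was found at 4 chromosome 4 regions (0.696%) and 2.30% of regions on the other arms, and CACGTG at 8 chromosome 4 regions (1.39%) and 0.905% of regions on the other arms. Of tiled windows, 0.899% on chromosome 4 and 1.24% on the other arms held GAGAGAG, and 0.659% on chromosome 4 and 1.17% on the other arms held CACGTG. Motifs were searched on both strands. A match of letters is a description of the window and not a bound site.

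Nearly every gene of chromosome 4 had a region at its promoter, but not a reproducible peak. Of its 80 protein-coding genes, 73 (91.2%, Wilson 83.02 to 95.7) had a summit of the pooled list within 1000 bp of a TSS, against 48.7% on the other arms (45.7 to 52.8% on each) and 48.9% over all 6 arms. With an IDR peak there were 14 (17.5%, Wilson 10.7 to 27.3), against 20.4% on the other arms (18.8 to 22.1% on each) and 20.4% over all 6 arms, so that share was near the background. The 14 genes rest on 12 peaks, since Cals and myo lie within reach of the peaks of Arf4 and ey. Among genes with a region at the promoter, 19.2% had an IDR peak on chromosome 4 and 41.8% on the other arms. The median of the highest promoter signal was 47.5 on chromosome 4 and 59.3 on the other arms. Chromosome 4 genes were long, with a median of 10.1 kb on chromosome 4 against 2.16 kb on the other arms. They held 4.49 summits per 10 kb of gene body, against 2.31 on the other arms. That excess is close to the one over all sequence, 432 regions per Mb on chromosome 4 and 222 on the other arms.

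By role, IDR peaks were counted at the promoters of 4 of 14 genes of transcription factors and chromatin and 2 of 11 signalling genes. They were counted at those of 4 of 10 housekeeping genes and 0 of 9 genes on the neuronal and synaptic list. Over all genes the share was 17.5% on chromosome 4 and 20.4% on the 6 arms, and no difference of a list from that share was tested. The lists were written with earlier results of these data known, so their counts describe these genes only. Of 14 genes of transcription factors and chromatin, 13 had a region at the promoter and 4 an IDR peak (zfh2, lgs, ci and ey), and the median promoter signal was 52.2. Below the IDR list stood Hcf (68.8), pan (60.9), Pur-alpha (52.2), Sox102F (51.6), the Polycomb-recruiting factor pho (32.0), the Mediator subunit gene MED26 (31.4), sv (24.9), the Pax6 paralogue toy (23.4) and onecut (17.8). The 1 with no promoter region in the pooled list was dati, which had one of 13.8 in replicate 1 and 11.8 in replicate 3.

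Of 11 genes of signalling ligands, receptors and adaptors, 10 had a region at the promoter, with a median of 59.3. An IDR peak was at 2 of them, PlexB and myo, the second through the peak it shares with ey. Ephrin (65.1), Actbeta (62.9), Asator (60.3) and the ephrin receptor gene Eph (58.3) formed a group just below, and PlexA (31.8), the TGF-beta ligand mav (27.1), the kinase gene PIP4K (26.4) and Slip1 (19.8) stood lower. Crk, an adaptor of receptor signalling, had none in the pooled list and a promoter region of 16.4 in replicate 3. Of 10 housekeeping genes all 10 had a region and 4 an IDR peak (gw, ATPsynbeta, Arf4 and RpS3A), with a median of 66.1 and a lowest value of 47.5, at the translation initiation factor eIF4G1. Rad23 (67.1) and the complex I subunit gene ND-49 (65.1) were the nearest below the list, the second through the summit it shares with Ephrin. Tdg (52.2) and Kif3C (49.4) also had their pooled values from summits shared with other genes, Pur-alpha and CG32017.

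All 9 genes on the neuronal and synaptic list had a region at the promoter and none an IDR peak, with a median of 31.5. The highest was Zyx (47.4), which encodes the focal adhesion protein zyxin, so not every member is particular to neurons. The calcium-dependent kinase gene CaMKII (46.8) and unc-13 (42.9) came next, and the lowest was Cadps, a gene of vesicle priming (19.7). Ank had 31.8, the glutamate receptor gene mGluR 31.5, dpr7 28.2, the GABA transporter gene Gat 26.0 and the synaptotagmin gene Syt7 22.9. In the pooled list these 9 values ended just below the lowest of the housekeeping genes, but the groups overlapped in both replicates. In replicate 1 the genes on the neuronal list had 12.7 to 33.3 and the housekeeping genes 23.9 to 112. In replicate 3 those on the neuronal list had 12.3 to 25.5 and the housekeeping genes 13.5 to 82.0. Of the muscle and lipid transport pair, apolpp had 47.4, from the summit it shares with Zyx, and bt, which encodes the muscle protein projectin, had none in the pooled list and 13.3 in replicate 3. The other genes without a promoter region in the pooled list were JYalpha, fd102C, CG33521 and Dyrk3. Of the 7, JYalpha and fd102C had none in either replicate's list.

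**Figure D5:**
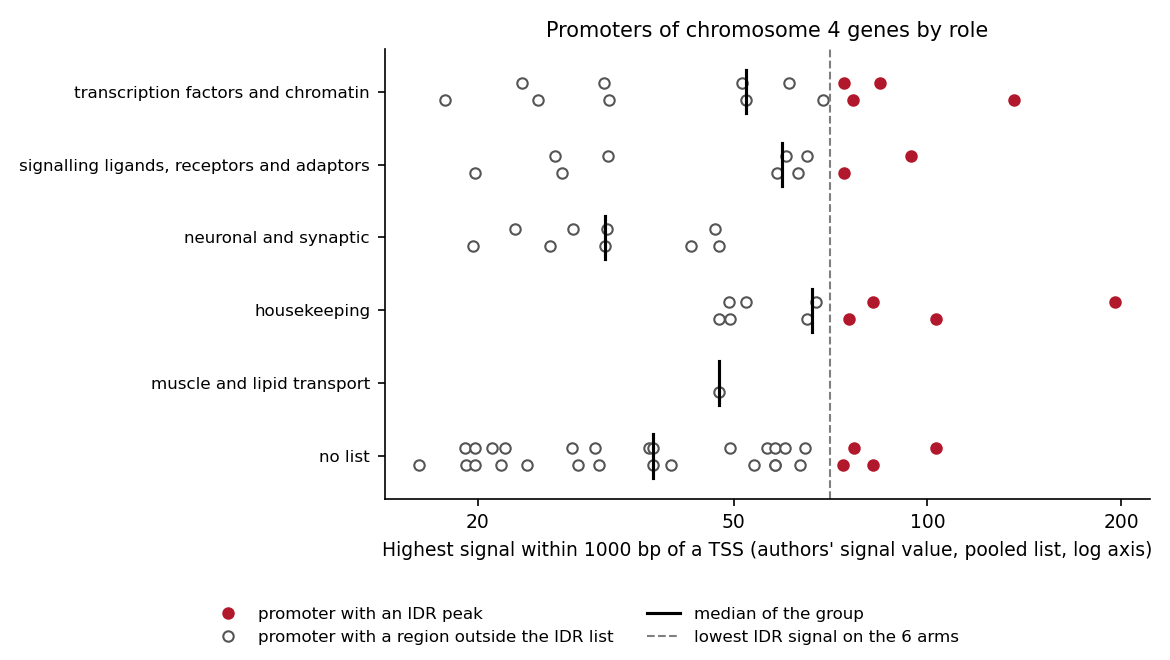
Highest signal within 1000 bp of a TSS (horizontal axis, log scale, pooled list) for the 73 chromosome 4 genes with a region there, by role list (vertical axis). Filled points are promoters with an IDR peak and open points are the rest; the black bar is the group's median and the dashed line the lowest IDR signal on the 6 arms (70.6). The neuronal and synaptic list reaches up to 47.4 at Zyx, a focal adhesion gene, and 46.8 at CaMKII. The housekeeping genes start at 47.5, a gap of the pooled list that neither replicate's list shows.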

How the data were processed

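Per the deposited text files, the list of each replicate was derived by the authors from its alignments and 1 further file, the pooled list from both alignments and that file, and the IDR list from these 3 lists. No aligner, peak caller, version or IDR threshold is named in the sources used here. The signal value of each region and its summit were used as the authors deposited them, and intervals and shares were computed from them here. No region ended beyond its arm in the Release 6 reference, which is dm6. Gene models came from Ensembl release 115 and mobile elements from RefSeq. Each summit got 1 class, with promoter taking precedence, then UTRs, coding exons, introns and intergenic sequence. A pooled region was matched to a replicate by an overlap of at least 1 bp, keeping the highest signal. The 29 mitochondrial regions were left out of all values on the arms. Sample groups and replicate numbers came from the labels. With 1 group of 2 replicates no test was run. Named genes are those nearest to the 16 IDR peaks, to the 10 strongest regions outside the list, and the 46 members of 5 role lists, of which 2 were matched through older symbols (Arf4 and Tdg); the genes of coding exon regions were added after their values were seen. The members and lists were chosen with earlier results of these data known, and the classes of A+T, the coding exon counts and the windows along the chromosome were added here after the data were seen. Functions for distances and overlaps were tested on simulated data. Python 3.11.15, pandas 2.3.3 and SciPy 1.17.1 were used.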

Additional observations from a re-analysis of the deposited data

How the results depend on the processing

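No paired analysis was possible because the study has 1 group. Of 63 alternative values for 13 results, 39 moved by less than the spread between the replicate lists, 24 moved by more and 0 reversed direction. The spread is the standard deviation of the values from the 2 lists. Where these were equal, or for replicate agreement, which has no value per list, it is 50% of the width of the 95% counting interval. Values from the list of 1 replicate alone are not independent of that spread. Without them 39 values remain, of which 24 moved by less, 15 by more and 0 reversed. In each pair below the chromosome 4 value is followed by that of the other arms, and it stands on the same side of it as in the report. The IDR share was 3.48% against 17.2% when any overlap counted and 0.870% against 6.45% for the stronger part of the IDR list. Density was 601 against 278 per Mb over bases not soft-masked and 518 against 233 outside mobile elements, the second chosen after seeing the data. The signal ratio was 0.769 for promoter regions. The promoter share was 13.6% against 19.1% within 250 bp, 19% against 26.9% within 500 bp, 38.4% against 51.8% within 2000 bp and 30.4% against 41.9% with the TSSs of all genes. Genes with a region were 76.2%, 85% and 96.2% at those 3 widths, against 34.5%, 42.5% and 56.4%. Agreement of the replicates was 41.7% against 54.7% with overlap of at least 50% of the shorter region. The AP-1 share over all regions was 0.522% against 1.18% within 25 bp and 1.57% against 3.67% within 100 bp. Taking the list of 1 replicate alone gave 349 to 464 regions per Mb, 2.43 to 3.23% of regions among the 3827 of highest signal (a cut that stands in for the IDR list, which a single replicate does not have), a signal ratio of 0.826 to 0.868, a promoter share of 28.9 to 29.6%, 91.2 to 93.8% of genes with a region, 0.647 to 0.809% with an AP-1 site, 9.39 to 9.48% in mobile elements and 9.71 to 13.4% in coding exons. The cause of these shifts was not tested. With read depth unknown, weak regions cannot be told apart from background.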
